A study of Mus musculus with 3 samples.

Results

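BMP and TGF-beta signalling genes were followed in the vessels of the developing mouse retina. The 10 genes were taken by symbol from the 33696 genes of the deposited gene table, where each had 1 row, and were read in endothelial cells (ECs), mural cells and microglia. They comprise the co-receptor *Eng* (ENSMUSG00000026814), the receptors *Acvrl1* (ENSMUSG00000000530), *Bmpr2* (ENSMUSG00000067336) and *Tgfbr2* (ENSMUSG00000032440), and the signal transducer *Smad1* (ENSMUSG00000031681). The others are the inhibitory *Smad6* (ENSMUSG00000036867) and *Smad7* (ENSMUSG00000025880) and the target genes *Id1* (ENSMUSG00000042745), *Id2* (ENSMUSG00000020644) and *Id3* (ENSMUSG00000007872). Retinas of pups at postnatal day 6 were dissociated, enriched with magnetic beads for CD31 and CD11b, which mark ECs and myeloid cells, and sequenced as 3 droplet libraries. The WT library came from wild-type mice, the *Tspan12* KO library from mice lacking *Tspan12*, and the *Ctnnb1* cKO library from mice carrying floxed *Ctnnb1* alleles that *Pdgfb*-iCreERT deletes in ECs after tamoxifen. The strain background was C57BL/6 throughout, each library was 1 pool of pups, and the WT pups were not littermates of the knockouts. Whether the WT pups carried the Cre transgene or received tamoxifen is not given in the sources used here. With 1 library per genotype, genotype and library cannot be told apart, and no test across replicates was possible.

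In ECs, BMP9 and BMP10 from the blood bind ALK1 (encoded by *Acvrl1*) and BMPR2 with the co-receptor endoglin (*Eng*), and the activated receptors phosphorylate SMAD1, which moves to the nucleus with SMAD4 and turns on *Id* genes, *Smad6* and *Smad7*. SMAD6 and SMAD7 then restrain the receptors, and ID proteins block basic helix-loop-helix factors. TGF-beta ligands use TGFBR2, which is central to microglial identity as well as to mural cells, and loss of endoglin, ALK1 or BMPR2 causes vascular disease with malformed or narrowed vessels. TSPAN12 and beta-catenin (*Ctnnb1*) belong to the Norrin pathway, which drives growth and barrier formation of retinal vessels.

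The libraries held 9151 to 14426 barcodes with median totals of 2790 to 4974 unique molecular identifiers (UMIs, each marking 1 captured transcript), and 21 to 37 barcode sequences were shared between pairs of libraries. After filtering, ECs of the WT, *Tspan12* KO and *Ctnnb1* cKO libraries numbered 538, 291 and 2714, with median totals of 15785, 14561 and 3346.5 UMIs. All 10 EC markers were detected in them, at a summed 7671 to 9182 CPM (UMIs of a gene per 1000000 UMIs of all cells of the class summed), beside 35.3 to 66.9 CPM of mural markers. Most ECs of *Ctnnb1* cKO clustered apart from those of WT. The EC cluster with 527 WT cells held 211 and 62 cells of the knockouts, while the other 2 held 2087 and 565 *Ctnnb1* cKO cells beside 10 and 1 of WT and 70 and 10 of *Tspan12* KO. Of 10 subclusters of all ECs together, 7 held no WT cell. The *Ctnnb1* cKO ratios in ECs thus compare cells mostly of different clusters, and library and cluster cannot be told apart. The targeted genes were read first. *Tspan12* was at 95.9 CPM (91.2 to 100.8) in WT ECs, 84.2 CPM (77.2 to 91.6) in those of the library labelled *Tspan12* KO and 40.1 CPM in those of the library labelled *Ctnnb1* cKO. *Ctnnb1* was at 523, 616 and 443 CPM (512 to 535 in the first and 432 to 455 in the last). It was thus lower in *Ctnnb1* cKO than in WT ECs beyond counting error. The same held in microglia (177 and 122 CPM) but not in rods (149 and 143 CPM). Neither deletion was seen as an absence of the transcript. Counts from the 3′ end need not cover the deleted part, whose position is not given in the sources used here, so these levels do not check the labels, and the names *Tspan12* KO and *Ctnnb1* cKO stand throughout for the libraries so labelled. Microglia numbered 287, 367 and 2122, with their own markers at a summed 16890.0, 16990.0 and 13030.0 CPM. Cells labelled mural numbered 13, 62 and 89. They carried the EC markers at 5109 to 6270 summed CPM beside mural markers at 4670 to 5615 CPM, so they were a mixture, described separately below. Rods, photoreceptors that should lack EC transcripts, were set beside them. The 10 EC markers summed there to 153, 85.1 and 426 CPM, in the same order of libraries, which is kept below wherever 3 values follow each other. The rod markers summed to 10390, 10360 and 5796 CPM in rods. Of the 1743 *Ctnnb1* cKO rods, 1670 came from a cluster that passed only 3 of 8 rod markers. Most rods of the other libraries came from clusters that passed 7 or 8. Rods of *Ctnnb1* cKO are thus a weaker match, and their levels are less comparable as a background.

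Of the 10 genes, 4 were past 1.5-fold in ECs of at least 1 knockout library, and their sequences just before the transcription start, from RefSeq on build GRCm38.p6, are shown for that reason. Of all genes tested in ECs, 19.4% were past 1.5-fold in either direction in *Tspan12* KO and 42.7% in *Ctnnb1* cKO. RefSeq promoters were matched for 7 of the 10 genes, with none for *Acvrl1*, *Smad7* or *Id1*. Each run is 250 bases long and reads 5′ to 3′ on the strand of the gene. Capitals mark CAGAC or its reverse complement GTCTG, a short SMAD-binding box, and GGCGCC, a GC-rich element of SMAD1 that reads the same on both strands. *Eng* lies at chr2:32646345-32646594 (plus strand), *Smad6* at chr9:64022060-64022309 (minus strand), *Id2* at chr12:25096093-25096342 (minus strand) and *Id3* at chr4:136143572-136143821 (plus strand).
Eng: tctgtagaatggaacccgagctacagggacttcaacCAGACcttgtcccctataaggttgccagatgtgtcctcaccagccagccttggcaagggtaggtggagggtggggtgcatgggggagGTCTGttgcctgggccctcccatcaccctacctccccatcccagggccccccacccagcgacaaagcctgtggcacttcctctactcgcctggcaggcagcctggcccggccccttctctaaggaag
Smad6: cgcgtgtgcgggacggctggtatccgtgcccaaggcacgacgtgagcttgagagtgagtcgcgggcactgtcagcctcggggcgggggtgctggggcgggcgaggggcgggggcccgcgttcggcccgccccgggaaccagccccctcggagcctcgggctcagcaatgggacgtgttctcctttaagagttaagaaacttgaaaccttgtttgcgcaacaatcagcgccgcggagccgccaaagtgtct
Id2: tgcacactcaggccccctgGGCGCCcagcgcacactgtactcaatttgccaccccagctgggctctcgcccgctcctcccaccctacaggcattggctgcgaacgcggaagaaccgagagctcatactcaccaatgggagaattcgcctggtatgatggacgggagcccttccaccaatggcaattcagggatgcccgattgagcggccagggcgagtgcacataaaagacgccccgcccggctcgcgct
Id3: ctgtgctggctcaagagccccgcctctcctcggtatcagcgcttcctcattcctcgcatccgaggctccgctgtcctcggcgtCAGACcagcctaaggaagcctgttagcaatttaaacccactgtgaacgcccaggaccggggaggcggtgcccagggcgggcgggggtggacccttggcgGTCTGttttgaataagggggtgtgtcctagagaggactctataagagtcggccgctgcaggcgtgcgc

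The *Eng* and *Id3* stretches each held 2 SMAD boxes, *Id2* held 1 GGCGCC element, and *Smad6* held neither. Among 32851 promoter stretches of that length, 42.2% held a SMAD box and 9.59% held GGCGCC on either strand, so both motifs are common. CTTTGA, the core that TCF/LEF partners of beta-catenin bind, was in 13.8% of all stretches on either strand and in none of the 7 matched here. No matches overlapped in the 4 stretches shown, and a match in these letters describes the sequence alone.

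To find which cells carried these transcripts, levels were first ordered across cell classes within each library (11 or 12 classes with at least 20000 UMIs). Activity of the pathway was not measured. *Eng*, *Acvrl1*, *Bmpr2*, *Smad1* and *Id1* had their highest level in ECs in all 3 libraries, although mural cells lay within counting error for *Eng* in WT and for *Smad1* in WT and *Ctnnb1* cKO. *Eng* stood at 298, 472 and 592 CPM in ECs against 3.45, 3.74 and 23.3 CPM in rods. *Acvrl1* was at 131, 130.1 and 152 CPM in ECs against 3.84, 3.45 and 7.90 CPM in rods. The BMP type II receptor was broader. For *Bmpr2*, rods held it at 151, 149 and 112 CPM, and in the *Ctnnb1* cKO library its level in ECs did not differ beyond counting error from that in neurogenic precursors (264.5 against 227 CPM). *Id1* was also high in retinal progenitors, at 565, 499.9 and 399.5 CPM, and the 2 classes did not differ beyond counting error in the *Ctnnb1* cKO library.

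*Tgfbr2* and *Smad7* had another distribution. *Tgfbr2* was highest in microglia in every library, at 177, 262 and 239 CPM, against 137, 124 and 146 CPM in ECs and at most 9.72 CPM in rods, with macrophages or monocytes (233.5 CPM) within counting error of microglia in *Tspan12* KO. *Smad7* was higher in microglia (144, 121 and 119 CPM) than in ECs (65.9, 92.6 and 78.5 CPM), and only neutrophils of the WT library, at 147 CPM, lay beside them within counting error. *Id2* was at 136, 139.8 and 147 CPM in microglia, above ECs in WT and *Ctnnb1* cKO but within counting error of them (119 CPM) in *Tspan12* KO, and was highest in neutrophils where that class was large enough to read, at 239.6 CPM in WT and 239.5 CPM in *Ctnnb1* cKO. *Id3* was highest in the cells labelled mural, followed by ECs, in all 3 libraries. *Smad6* had no class that stood apart: its highest levels were 15.3 CPM in WT ECs, 35.1 CPM in pigment epithelium or melanocytes of *Tspan12* KO and 35.2 CPM in mural cells of *Ctnnb1* cKO, each within counting error of the next class.

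**Figure D1:**
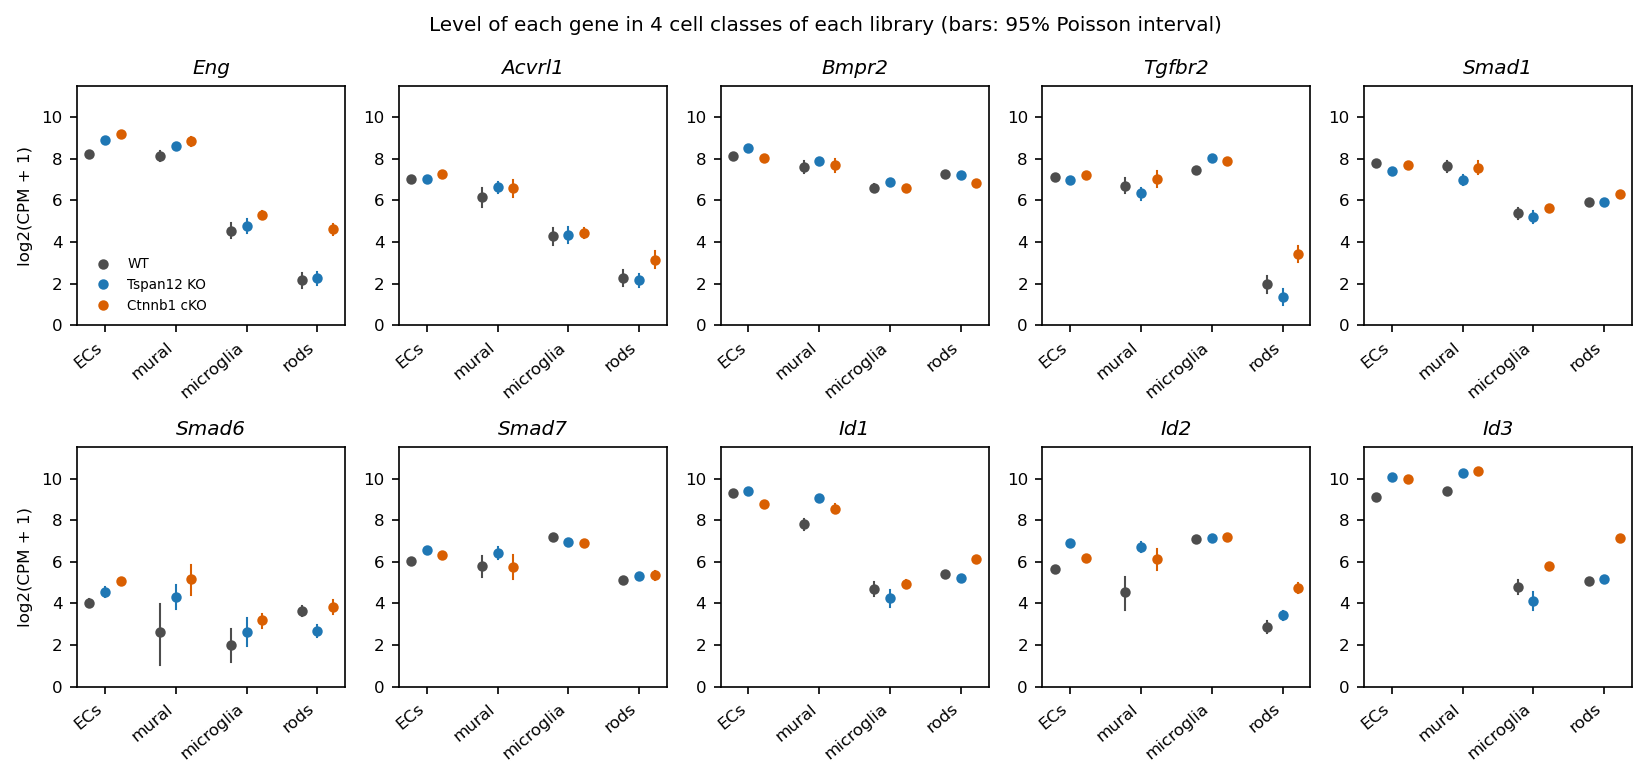
Level of each gene, as log2(CPM + 1), in ECs, mural cells, microglia and rods of the WT, *Tspan12* KO and *Ctnnb1* cKO libraries; points are summed UMIs of 1 library and bars the 95% Poisson interval, which covers counting error only. *Eng* reached 592 CPM in *Ctnnb1* cKO ECs, and *Tgfbr2* was higher in microglia than in ECs in each library.

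To ask how vessels of the mice labelled as knockouts in the Norrin pathway carried these genes, each knockout library was set against WT as a log2 ratio of CPM, with a gene called past 1.5-fold where it had at least 50 UMIs over both libraries. In *Tspan12* KO ECs, 3 of the 10 genes were called higher (*Eng*, *Id2* and *Id3*) and 0 lower, where 9.04% of 12206 genes were called higher and 10.4% lower. In *Ctnnb1* cKO ECs, 3 were called higher (*Eng*, *Smad6* and *Id3*) and 0 lower, where 16.9% of 12803 genes were called higher and 25.8% lower. The median log2 ratio of the 10 genes was 0.43 in *Tspan12* KO and 0.23 in *Ctnnb1* cKO, beside 0.02 and −0.12 over all genes tested. Both comparisons share the WT library, so a difference in that library would enter both. TMM scaling, which trims extreme genes before it sets library sizes, moved *Ctnnb1* cKO ratios in ECs up by 0.14 and *Tspan12* KO ratios down by 0.02. It turned the sign of *Bmpr2* and *Smad1* in *Ctnnb1* cKO.

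Among the receptors the co-receptor stood out. *Eng* was at 298 CPM (95% Poisson interval 289 to 306), 472 CPM (455 to 489) and 592 CPM (579 to 606), log2 ratios to WT of 0.66 (0.60 to 0.73) and 0.99 (0.94 to 1.05). The intervals of the 3 libraries do not overlap and the order was WT, *Tspan12* KO, *Ctnnb1* cKO. In ECs of 2000 to 8000 UMIs the ratios were 0.45 and 0.71, the former inside 1.5-fold. After thinning every cell to 2000 UMIs, which left out 18, 29 and 826 shallower ECs, an *Eng* UMI was held by 43.7% of 520, 58.8% of 262 and 62.6% of 1888 ECs, beside 0.419%, 0.812% and 4.43% of rods.

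The other receptors stayed within 1.5-fold. *Acvrl1* was at 131, 130.1 and 152 CPM, log2 ratios of −0.01 (−0.13 to 0.11) and 0.21 (0.12 to 0.30), and ECs of 2000 to 8000 UMIs gave −0.47 and −0.20. *Bmpr2* was at 284, 365 and 264.5 CPM, with a ratio of 0.36 (0.29 to 0.44) in *Tspan12* KO and −0.10 in *Ctnnb1* cKO, where TMM scaling gave 0.04. *Tgfbr2* was at 137, 124 and 146 CPM, log2 ratios of −0.15 and 0.09. The largest of these 6 receptor ratios is below that of *Eng* in either knockout.

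*Smad1*, which carries the BMP signal to the nucleus, was at 218, 167 and 205 CPM in ECs, with ratios of −0.39 (−0.49 to −0.29) in *Tspan12* KO and −0.09 in *Ctnnb1* cKO. The lower level in *Tspan12* KO kept its direction under all 10 alternatives (−0.51 to −0.29), although not within arterial-like ECs, as given below, while the *Ctnnb1* cKO value took either sign (−0.11 to 0.22).

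The inhibitory SMADs were at low levels. *Smad6* was at 15.3, 22.4 and 33.34 CPM, from 246, 144 and 429 UMIs, log2 ratios of 0.55 (0.24 to 0.85) and 1.12 (0.90 to 1.36). Rods held 11.3, 5.43 and 13.4 CPM, and WT microglia 2.97 CPM. At 2000 UMIs per cell, *Smad6* was seen in 2.50%, 5.34% and 7.04% of ECs and in 1.84%, 1.03% and 3.14% of rods. *Smad7* was at 65.9, 92.6 and 78.5 CPM, log2 ratios of 0.49 (0.34 to 0.64) and 0.25 (0.13 to 0.38), both within 1.5-fold.

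The *Id* genes moved apart from each other. *Id3* was at 546, 1068 and 1016 CPM in ECs, log2 ratios of 0.97 (0.92 to 1.01) and 0.89 (0.86 to 0.93), and the 2 knockout libraries differed from each other by only −0.07 (*Ctnnb1* cKO minus *Tspan12* KO). *Id1* was at 625, 671 and 439.7 CPM, log2 ratios of 0.10 (0.05 to 0.15) and −0.51 (−0.55 to −0.46), so its level was lower in *Ctnnb1* cKO while that of *Id3* was higher. *Id2* was at 49.5, 119 and 72.9 CPM, log2 ratios of 1.26 (1.12 to 1.41) and 0.56 (0.42 to 0.70). Rods held *Id2* at 6.33, 9.76 and 25.7 CPM, so in *Ctnnb1* cKO it was higher than in WT there too. The part of shared RNA in its EC level was not tested. Among the 10 genes, *Id2* had the largest ratio in *Tspan12* KO over all ECs, though not within the named subtypes, as given below. That ratio was 0.60 in ECs of 2000 to 8000 UMIs, and in *Ctnnb1* cKO the *Id2* ratio was 0.04 once cells with cell-cycle UMIs were left out and 0.70 with TMM scaling.

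The shares of cells followed the levels. At 2000 UMIs per cell, *Id3* was seen in 63.3% (59.0 to 67.4%), 76.0% (70.3 to 81.0%) and 77.4% (75.5 to 79.3%) of ECs. Rods gave 86 of 1194, 90 of 1355 and 140 of 700 cells. *Id1* was seen in 55.0%, 66.0% and 48.3% of ECs and *Id2* in 52 of 520, 51 of 262 and 243 of 1888. ECs with an *Id1* UMI held an *Id3* UMI in 70.6%, 80.9% and 84.2% of cells, and ECs without one in 54.3%, 66.3% and 71.1%.

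**Figure D2:**
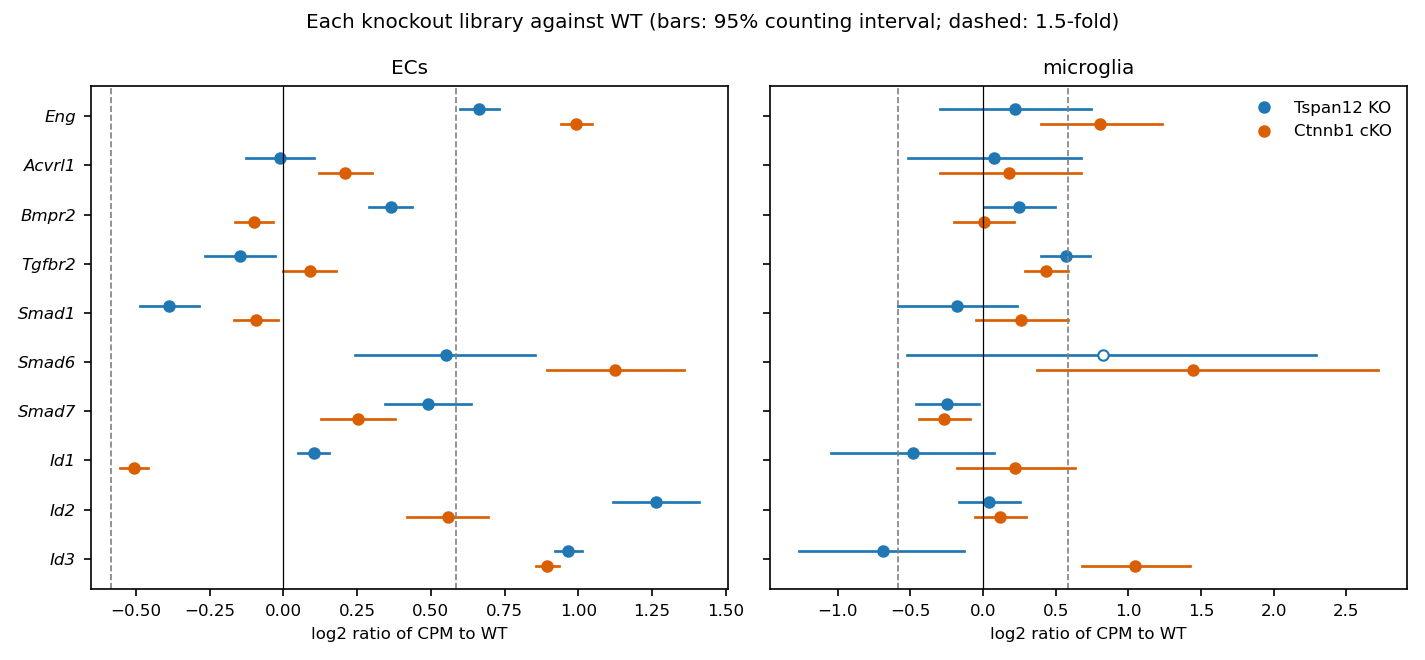
Log2 ratio of CPM of each gene in the *Tspan12* KO and *Ctnnb1* cKO libraries to WT in ECs (left) and microglia (right); bars are the 95% counting interval, dashed lines mark 1.5-fold and an open point had under 50 UMIs. In ECs *Id3* lay at 0.97 and 0.89, *Eng* at 0.66 and 0.99, and *Id1* at 0.10 and −0.51.

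*Id3* was also read per *Id1* UMI of the same cells, a quantity that does not depend on how libraries are scaled and that serves here to compare libraries, not the absolute abundance of the genes. In all ECs there were 0.874 *Id3* UMIs per *Id1* UMI (exact 95% interval 0.85 to 0.90), 1.59 (1.53 to 1.65) and 2.31 (2.24 to 2.38). The subsets that follow were chosen after the data were seen. The order was the same in ECs of 2000 to 8000 UMIs (0.871, 1.29 and 2.24) and in ECs without cell-cycle UMIs (0.743, 1.31 and 2.18). It was also the same within arterial-like ECs (0.652, 1.01 and 1.60) and within proliferative-like ECs (0.996, 1.52 and 2.53). Tip-like ECs, found in WT and *Ctnnb1* cKO, did not share it, at 2.16 (1.78 to 2.63) and 1.92 (1.78 to 2.08). Those tip-like groups matched their markers unequally, as given below. Rods gave 0.803 (0.69 to 0.93), 0.97 (0.85 to 1.10) and 2.01 (1.76 to 2.29), so the intervals of ECs and rods overlapped in WT and *Ctnnb1* cKO and not in *Tspan12* KO. The part of RNA shared between cells of a library in these values was not tested. Rods of *Ctnnb1* cKO matched their markers less well, as given above. Retinal progenitors, which hold *Id3* at 521, 270.2 and 437.5 CPM, gave 0.922, 0.541 and 1.10. *Id2* per *Id1* UMI was 0.0792, 0.177 and 0.166 in ECs.

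**Figure D3:**
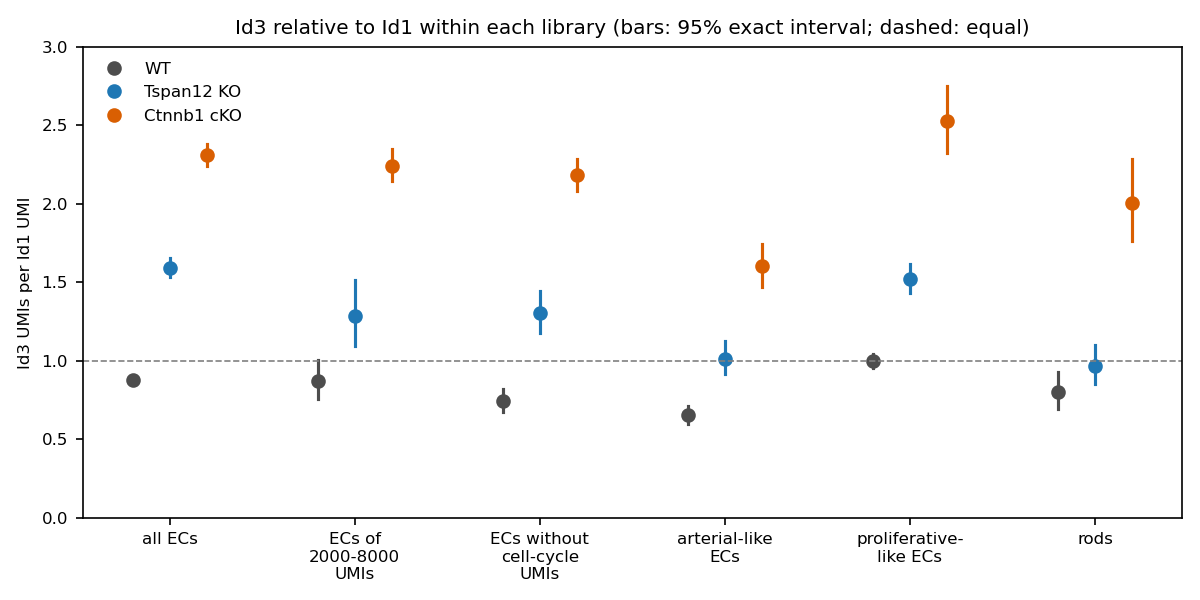
*Id3* UMIs per *Id1* UMI in ECs, in subsets of ECs and in rods of each library; points are sums over the cells of 1 library and bars the exact 95% interval. In the sets of ECs shown the order was WT, *Tspan12* KO, *Ctnnb1* cKO, from 0.874 to 2.31 over all ECs.

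Within each library ECs were divided into subclusters named from fixed markers, with the 10 genes kept out of the clustering. Arterial-like ECs numbered 46, 81 and 337, and the *Tspan12* KO group was the weakest match, with 6 of 10 markers. Both feedback inhibitors were higher in arterial-like than in other ECs of every library. *Smad6* in arterial-like ECs was at 66.9, 53.7 and 89.4 CPM, above the other ECs of the library by a log2 ratio of 2.53, 1.60 and 1.64. *Smad7* was at 183, 128 and 199 CPM, a log2 ratio of 1.67, 0.55 and 1.54. Single subclusters of the other ECs could reach the arterial-like level in the knockouts, though not in WT. In *Tspan12* KO an unnamed subcluster of 66 cells had *Smad7* at 141 CPM, but *Smad6* at only 32.0 CPM. In *Ctnnb1* cKO an unnamed subcluster of 295 cells had *Smad6* at 99.4 CPM, but *Smad7* at only 149 CPM.

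The receptors ALK1, BMPR2 and TGFBR2 were higher in arterial-like ECs as well, *Acvrl1* by 1.25, 0.42 and 1.01 on the log2 scale, *Bmpr2* by 0.72, 0.56 and 0.59, and *Tgfbr2* by 0.92, 1.02 and 0.29. *Id1* was at 1243, 851 and 915 CPM there, above the other ECs by 1.10, 0.40 and 1.19. *Id3* was above the other ECs by 0.62 in WT and 0.58 in *Ctnnb1* cKO, but below them in *Tspan12* KO (−0.35), and *Id2* differed by 1.36, 0.20 and 1.16. *Eng* differed from the other ECs by −0.04 and −0.05 in WT and *Ctnnb1* cKO, within counting error, and by −0.19 (−0.36 to −0.03) in *Tspan12* KO. *Smad1* was lower in arterial-like ECs of WT (106 CPM, −1.10) and *Ctnnb1* cKO (69.9 CPM, −1.63) and higher in those of *Tspan12* KO (206 CPM, 0.36). In 8 of the 10 genes the *Tspan12* KO value was thus on the same side as both other libraries, *Smad1* and *Id3* being the exceptions. Of the 8, *Eng* in WT and *Ctnnb1* cKO and *Id2* in *Tspan12* KO (−0.11 to 0.49) were within counting error. The side of those values is not resolved.

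Proliferative-like ECs (149, 99 and 332 cells) were low in inhibitors and in the receptors other than *Eng*. *Eng* was below the other ECs in *Tspan12* KO (−0.53) and *Ctnnb1* cKO (−0.24), but not in WT (0.08, −0.002 to 0.16). *Acvrl1*, *Bmpr2*, *Tgfbr2*, *Smad6*, *Smad7* and *Id1* were below the other ECs in all 3 libraries, *Smad6* by log2 ratios of −0.76, −1.76 and −1.09. Tip-like ECs, the leading cells of sprouts, were found as 20 cells in WT with all 11 tip markers. They held *Id1* at 157 CPM, *Id3* at 339 CPM, *Eng* at 182 CPM and *Id2* as only 3 UMIs, each lower than in the other ECs of the library, by log2 ratios of −2.06, −0.72, −0.75 and, for *Id2*, −4.13 (−6.41 to −2.58). In *Ctnnb1* cKO a subcluster of 632 cells matched tip ECs on only 4 of 11 markers, and was led by *Apod*. It had *Id1* at 324 CPM, *Id3* at 624 CPM, *Eng* at 419.6 CPM and *Smad6* at 8.34 CPM, again each below the other ECs of its library. An unnamed *Ctnnb1* cKO subcluster of 295 cells, led by *Cyp26b1*, had *Eng* at 843 CPM, *Smad6* at 99.4 CPM and *Id3* at 1694 CPM.

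**Figure D4:**
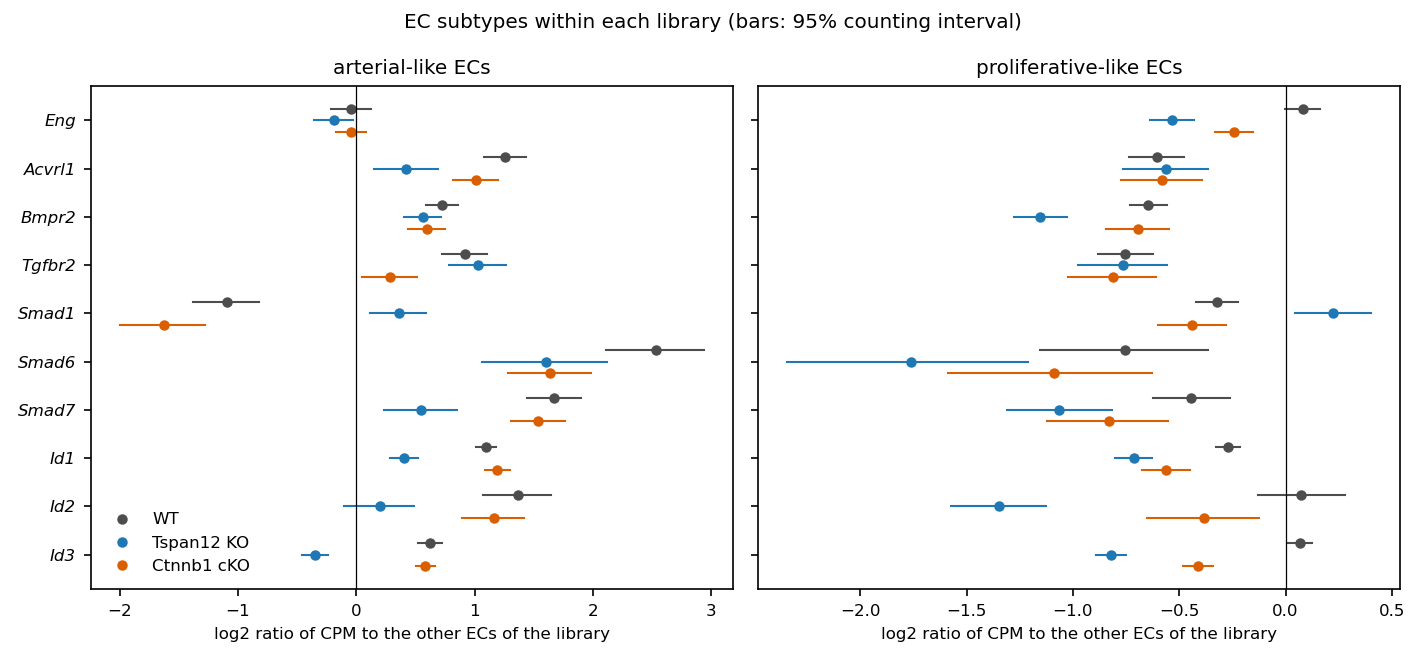
Log2 ratio of the CPM of each gene in arterial-like (left) and proliferative-like (right) ECs to the other ECs of the same library; points are 1 library and bars the 95% counting interval. *Smad6* was 2.53, 1.60 and 1.64 higher in arterial-like ECs, and *Smad1* took opposite signs in WT and *Tspan12* KO.

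The knockout ratios were then read within the subtypes, since the libraries differ in their make-up. *Eng* was higher than in WT in arterial-like ECs (0.54 in *Tspan12* KO and 0.99 in *Ctnnb1* cKO), in proliferative-like ECs (0.35 and 0.75) and in the tip-like ECs of *Ctnnb1* cKO (1.205). *Id1* was lower in arterial-like ECs of both knockouts (−0.55 and −0.44) and in proliferative-like ECs (−0.12 and −0.83), but higher in the tip-like ECs of *Ctnnb1* cKO (324 against 157 CPM, 1.05). *Id3* in *Ctnnb1* cKO was higher in arterial-like (0.86), proliferative-like (0.52) and tip-like ECs (0.88). The tip-like groups matched 11 of 11 markers in WT (20 cells) and only 4 of 11 in *Ctnnb1* cKO (632 cells). The tip-like ratios may therefore compare different kinds of cell, which was not tested. In *Tspan12* KO *Id3* was higher in proliferative-like ECs (0.50), but at 863 CPM against 811 CPM in arterial-like ECs its ratio was only 0.09 (−0.05 to 0.23). An unnamed *Tspan12* KO subcluster of 66 cells led by *Slco1c1* held *Id3* at 1671 CPM, 3135 of the 6861 *Id3* UMIs of ECs in that library. The same subcluster held *Id2* at 208 CPM, 391 of the 764 *Id2* UMIs of those ECs. *Id2* in *Tspan12* KO differed from WT by 0.21 (−0.17 to 0.59) in arterial-like and 0.45 (0.21 to 0.69) in proliferative-like ECs, both ratios within 1.5-fold. *Smad1*, lower over all *Tspan12* KO ECs, was higher than in WT in the arterial-like ones (206 against 106 CPM, 0.96 with an interval of 0.61 to 1.32) and differed by −0.10 (−0.24 to 0.03) in proliferative-like ECs. *Acvrl1* in arterial-like ECs was lower in *Tspan12* KO (167 against 286 CPM, −0.78) and level in *Ctnnb1* cKO (−0.01). *Smad6*, past 1.5-fold over all *Ctnnb1* cKO ECs, differed by 0.42 (−0.05 to 0.89) in arterial-like and 0.64 (0.07 to 1.20) in proliferative-like ECs. When a subcluster led by photoreceptor genes, which held 62, 51 and 11 ECs, was left out, the EC ratios of all 10 genes in both knockouts stayed within counting error of those reported.

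**Figure D5:**
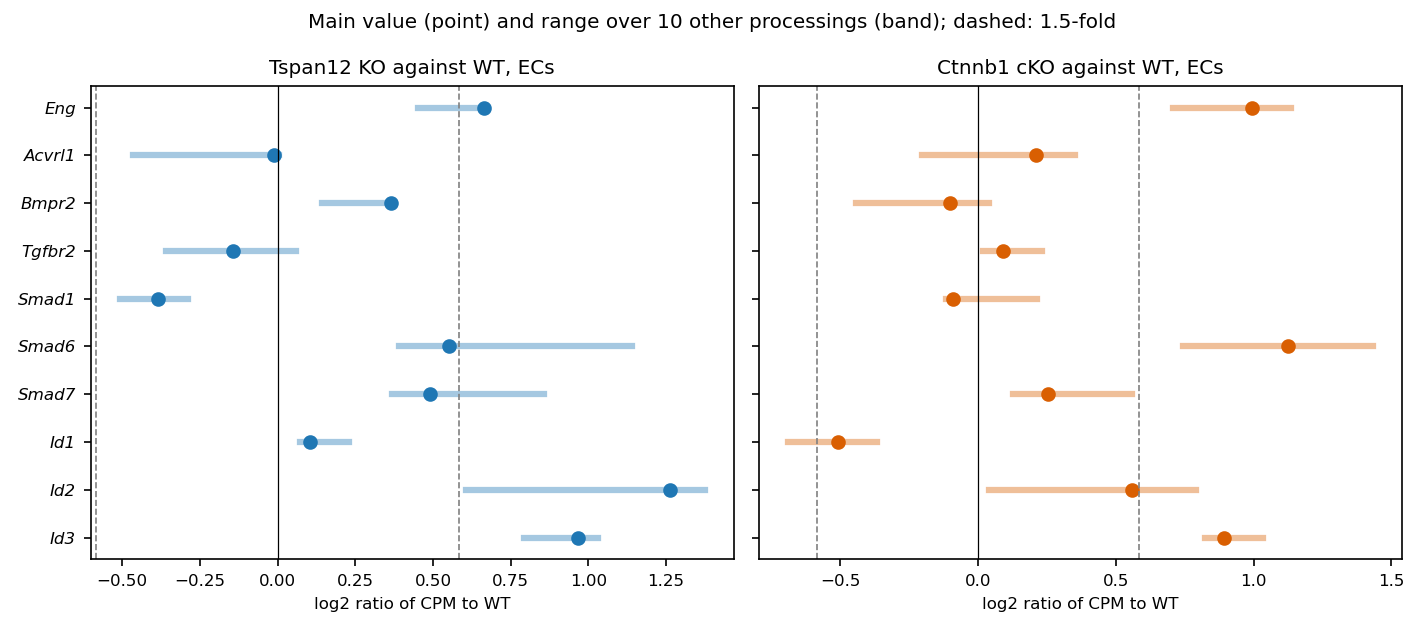
Log2 ratio to WT of each gene in ECs as reported (point) and its range over 10 alternative processings (band), for *Tspan12* KO and *Ctnnb1* cKO; dashed lines mark 1.5-fold. *Id3* stayed between 0.79 and 1.03 in *Tspan12* KO and between 0.82 and 1.04 in *Ctnnb1* cKO, and *Id2* had the widest bands, from 0.60 to 1.37 and from 0.04 to 0.79.

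Microglia were read as the second cell type of the enrichment. As with ECs, most *Ctnnb1* cKO microglia clustered apart from those of WT. One cluster held 15, 18 and 1813 cells, and another held 165, 256 and 49. A shallower cluster, with a median of 1832 UMIs, held 97, 75 and 53. Library and cluster thus cannot be told apart in the *Ctnnb1* cKO ratios of microglia either. In *Tspan12* KO microglia, 0 of 9 genes with enough UMIs were called higher and 1 (*Id3*) lower, where 10.5% of 8816 genes were called higher and 5.66% lower. In *Ctnnb1* cKO microglia, 3 of 10 were called higher (*Eng*, *Smad6* and *Id3*) and 0 lower, where 20.7% of 10482 genes were called higher and 17.0% lower. *Id3* was at 26.8, 16.6 and 55.2 CPM in microglia against 33.2, 35.1 and 140.5 CPM in rods, and *Smad6* at 2.97, 5.28 and 8.07 CPM against 11.3, 5.43 and 13.4 CPM. Both lay at or below the level in rods of the same library, and no difference in microglial expression is read from them. *Eng* was at 22.3, 26.0 and 38.9 CPM against 3.45, 3.74 and 23.3 CPM in rods, and the EC markers in microglia summed to 174, 89.3 and 387 CPM. The part of EC RNA in the *Eng* level was not tested.

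*Tgfbr2*, *Smad7* and *Id2* were well above rods in microglia and within 1.5-fold of WT as reported here. *Tgfbr2*, the receptor that microglia depend on, was at 177, 262 and 239 CPM, log2 ratios of 0.57 (0.40 to 0.74) and 0.44 (0.29 to 0.59), both above WT. Its *Tspan12* KO ratio was past 1.5-fold under 4 of 8 alternatives (0.48 to 0.72). The *Ctnnb1* cKO ratio was past it under 1 of 8 (0.43 to 0.60). *Smad7* was at 144, 121 and 119 CPM, log2 ratios of −0.24 and −0.27. *Id2* was at 136, 139.8 and 147 CPM, log2 ratios of 0.04 and 0.12. At 2000 UMIs per cell, *Tgfbr2* was seen in 26.3% of 240, 39.2% of 311 and 34.9% of 1779 microglia, and in 0.503%, 0.295% and 1.71% of rods.

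In cells labelled mural, *Eng* was at 281, 394 and 455 CPM and *Id3* at 675, 1220.0 and 1324 CPM. Because EC markers were as high there as mural markers, cells with no UMI of *Pecam1*, *Cdh5* or *Cldn5* were set apart, a choice made after the mixture was seen. They were 3 of 13, 30 of 62 and 39 of 89 cells, with median totals of 6329, 6094 and 1958 UMIs against 18620, 31350 and 5404 UMIs in the others. *Rgs5*, a pericyte marker, was at 6714, 11670 and 9126 CPM in them and at 2247, 2001 and 2017 CPM in the others. *Id3* remained high, at 2257 (1784 to 2817), 1370 (1213 to 1542) and 1768 (1500 to 2070) CPM, above its level in ECs of each library. *Eng* in these cells was 0 of 34554 UMIs in WT, which allows up to 86.8 CPM (3 counts), then 85.0 CPM and 207 CPM, each below the cells with EC markers (299, 452.5 and 509.9 CPM). *Id1*, at 174, 165 and 115 CPM, was also below its level in ECs. Ratios to WT in mural cells rest on 13 WT cells and are not used here.

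The wider pathway was read from 8 lists that hold 65 other genes. In ECs of *Tspan12* KO 40 of them had enough UMIs, of which 9 were called higher and 3 lower, beside 9.04% and 10.4% of all genes tested. In the *Ctnnb1* cKO library it was 44, with 14 higher and 9 lower, beside 16.9% and 25.8%. Of the 15 listed ligands, 5 had enough UMIs in *Tspan12* KO ECs and 7 in *Ctnnb1* cKO ECs. Among these, *Bmp6* had the largest ratio in *Tspan12* KO at 2.07 (2.11 to 8.87 CPM, from 34 and 57 UMIs). *Bmp4* had one of the largest in *Ctnnb1* cKO at 3.87 (0.746 to 10.9 CPM, from 12 and 140 UMIs). Both encode BMPs and both remained rare transcripts. *Bmp4* was also among the leading genes of the pigment epithelium or melanocyte cluster, which held 2, 49 and 95 cells. The part of RNA from those cells in its EC level was not tested. *Lrg1*, whose product modulates TGF-beta signalling in ECs through endoglin, was at 1.74, 4.82 and 34.6 CPM, log2 ratios of 1.47 and 4.31. It was among the leading genes of the EC cluster that held 1, 10 and 565 cells, and was not read within EC subtypes. *Ltbp1*, which stores latent TGF-beta in the matrix, was at 8.95, 2.96 and 3.34 CPM, log2 ratios of −1.60 and −1.42. *Gdf11*, a ligand, had the lowest ratio after *Ltbp1* in *Ctnnb1* cKO, −0.94 (−1.92 to −0.04), from 36 and 15 UMIs.

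By list, and with the 10 genes counted in theirs, none of the 5 receptor-regulated or common SMADs with enough UMIs was past 1.5-fold in either knockout. This and the counts that follow stand beside the shares over all genes tested in ECs. In *Tspan12* KO 9.04% were called higher and 10.4% lower, and in *Ctnnb1* cKO 16.9% and 25.8%. Of 8 inhibitory SMADs and other intracellular inhibitors, 0 were called in *Tspan12* KO, and in *Ctnnb1* cKO *Smad6* was called higher while *Pmepa1* (396 to 217 CPM, −0.87), *Skil* (161 to 84.8 CPM, −0.92) and *Tgif1* (28.0 to 17.4 CPM, −0.69) were called lower. The products of these 3 restrain TGF-beta signalling, and they were named after their values were seen. Of the 13 target genes with enough UMIs, 5 were called higher and 2 lower in *Tspan12* KO, and 7 higher and 0 lower in *Ctnnb1* cKO, *Id2* and *Id3* being among the former and *Id3* among the latter. *Tmem100*, a BMP9 target of ECs that was also picked after its value was seen, was at 8.83, 13.7 and 43.8 CPM, log2 ratios of 0.63 and 2.31. It was among the leading genes of the arterial-like subcluster of all ECs together, which held 0, 4 and 328 cells. *Tmem100* was not read within EC subtypes. Of the 7 type I receptors, the 5 with enough UMIs in *Ctnnb1* cKO included 1 called higher and 2 called lower, whereas *Acvrl1* was within 1.5-fold.

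Profiles across cell classes were compared as a description, by Pearson's r of log2(CPM + 5) over 35 points, each 1 class in 1 library, among 13230 genes. Points of 1 library share its free RNA and depth, and no p is given. *Eng* and *Acvrl1* were each other's closest gene (r = 0.96), followed by the EC junction gene *Cdh5* for both. *Tgfbr2* was most like *Entpd1* (r = 0.97), *Id1* most like *Nrarp* (r = 0.91), and *Id3* most like *Ppic* (r = 0.93). *Smad6*, *Id2* and *Smad7* had looser matches, with *Aqp11* (r = 0.83), *Srd5a3* (r = 0.77) and *C1galt1c1* (r = 0.74). Between the genes themselves, *Id1* and *Id3* correlated at 0.86, while *Smad6* and *Smad7* were at −0.01.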

How the data were processed

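Retinal cells of 3 mouse libraries were measured by 10x 3′ single-cell RNA sequencing. The deposited matrices hold raw UMI counts per gene and barcode, made by the authors with Cell Ranger (version 8.0.1 per the file headers, another version in the methods); the submitters' notes name GRCm39 and the methods mm10, so no coordinates of the counted genes are given. Other data sets the study integrated, and its Harmony step, were not used here.

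Kept cells had at least 250 genes, at least 500 UMIs and no more than 15% mitochondrial UMIs. Scrublet's own threshold called 0, 0 and 323 cells, so the cells with the highest scores were removed as doublets at 0.8% per 1000 cells (760, 1656 and 665 cells). Clustering (scanpy version 1.11.5, 2000 variable genes without the 10 genes or the pathway lists, 30 components, leidenalg version 0.10.2, resolution 1) gave 32 clusters, which were named, as cells like a class, from at least 3 fixed markers. A mean marker log2 fold of at least 0.5 was also required, a choice made after the clusters were seen. ECs were clustered again within each library.

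UMIs were summed per class and library, divided by the total and given as CPM with exact Poisson intervals; log2 ratios have exact conditional binomial and shares exact Clopper-Pearson intervals. All are 95% intervals of counting error. With 1 library per group no p-value is given. A gene was called past 1.5-fold with at least 50 UMIs over both libraries. Alternatives were trimmed mean of M values (TMM) scaling (edgeR version 4.0.16), no doublet removal, clustering per library, a marker gate, the 10 genes kept in clustering, means over cells, 1000 UMIs per cell, cycling cells left out, other depths of thinning (1000 and 4000 UMIs, or none), a pseudocount of 1 CPM, no minimum of UMIs, and, added after seeing the data, no photoreceptor-led ECs and ECs of 2000 to 8000 UMIs. The *Id3* to *Id1* ratio and the split of mural cells were also added then. The ratio and interval functions were tested on simulated data. Genes named were the 10 genes and, from the lists, the 2 with the largest and the 2 with the lowest ratio in ECs of each knockout; others are marked as named after their values were seen. One gene that this rule names is not reported here. The 10 genes and lists were chosen with earlier results of these data known.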

Additional observations from a re-analysis of the deposited data

Results flagged for a closer look

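*Id3* in the *Tspan12* KO library took opposite directions in the 2 enriched cell types: the log2 ratio against WT was 0.97 for ECs (546 to 1068 CPM) and −0.69 in microglia (26.8 to 16.6 CPM). The difference between them was not tested, since each side is 1 library against 1. Rods held *Id3* at 33.2 CPM in WT and 35.1 CPM in *Tspan12* KO, above the microglial levels, which rest on 72 and 44 UMIs.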

How the results depend on the processing

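Of the ratios recomputed in ECs and microglia, 299 moved by less than counting error and 61 further, and no called ratio reversed. In ECs the count of genes past 1.5-fold ranged over the alternatives run from 2 to 4 (*Tspan12* KO) and from 3 to 4 (*Ctnnb1* cKO). *Id3* and *Id2* in *Tspan12* KO and *Eng*, *Smad6* and *Id3* in *Ctnnb1* cKO stayed past 1.5-fold under all 10, and *Eng* in *Tspan12* KO under 7 (0.45 to 0.68). Within arterial-like and proliferative-like ECs, however, the *Id3* and *Id2* ratios in *Tspan12* KO were inside 1.5-fold. In microglia of *Ctnnb1* cKO 5 genes were called with no doublets removed, against 3. In microglia of *Tspan12* KO, against 1, there were 2 with libraries clustered separately, 3 with the marker gate, 2 with means over cells and 2 without cells with cell-cycle UMIs. In mural cells the marker gate reversed *Smad1* (0.77), *Id1* (−0.39) and *Id3* (−0.43) in *Tspan12* KO and *Id1* (−0.99) in *Ctnnb1* cKO; the cause was not tested. Without the minimum of 50 UMIs, 44.5% in place of 19.4% of genes in *Tspan12* KO ECs and 58.6% in place of 42.7% in *Ctnnb1* cKO ECs were past 1.5-fold in either direction. No paired analysis was possible because each group holds 1 library. Clustered separately, the WT library had no mural cluster, so that alternative gave no mural ratios. The window of 2000 to 8000 UMIs moved 18 EC ratios. The lower depth of *Ctnnb1* cKO ECs limits single-cell shares, and intervals do not cover differences between pups.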
